A study of Gorilla gorilla gorilla with 14 samples.

Results

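OTX2, MSX1, LMX1A, RSPO2, FOLR1, AQP1 and TTR are 7 genes known from the choroid plexus and from the cortical hem, the strip of dorsal midline tissue next to it. The regions described here are those that the deposited count table of chromatin accessibility lists with 1 of these genes as the closest gene and with a position in the gorilla genome (build gorGor6). There were 46 such regions among 204249, namely 5 for OTX2, 6 for MSX1, 12 for LMX1A, 4 for RSPO2, 3 for FOLR1, 8 for AQP1 and 8 for TTR. A region listed at 1000 bp or less from its gene is called a promoter region here. Of the 46 regions 7 were promoter regions, belonging to 6 genes, and 39 were distal. The AQP1 region at 893 bp and the OTX2 region at 852 bp lay just inside that limit, and the FOLR1 region at 1012 bp and the OTX2 region at 1234 bp just outside it. TTR had no promoter region, and its nearest listed region lay at 5355 bp.

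The choroid plexus is a folded epithelium inside the brain ventricles that secretes cerebrospinal fluid and moves nutrients and hormones into it. It forms from the roof plate at the dorsal midline of the telencephalon, beside the cortical hem, a signalling centre whose WNT and BMP proteins pattern the neighbouring cortex and hippocampus. OTX2, MSX1 and LMX1A are homeodomain transcription factors of these midline tissues, RSPO2 is a secreted enhancer of WNT signalling, and FOLR1, AQP1 and TTR serve the transport functions of the mature epithelium.

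The assay was bulk ATAC-seq, which marks open DNA with adapters placed by a transposase, so a count reports how open a region was and not how much RNA its gene made. Gorilla cerebral organoids, all made from 1 line of induced pluripotent stem cells (GC1), were taken apart in week 8, and cells were sorted from them by flow cytometry, with no treatment or genetic change given in the labels. The groups were neurons labelled BCL11B-positive (N, n = 4), basal intermediate progenitors (bIP, n = 5), which are committed to making neurons, basal radial glia (bRG, n = 2), stem cells away from the ventricle, and apical radial glia (aRG, n = 3), the stem cells that line it. None of the 4 sorted types is labelled as choroid plexus or hem, and 1 cell line stands for the species. The labels do not tell whether the libraries of 1 group go back to different cultures. The p-values therefore speak only of the spread between these libraries, and this may be technical.

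Library totals ranged from 12834983 to 26660427 counts. By the numbers the labels give them, the libraries fall into 2 runs, called the first and the second library series, with 7 libraries each. N replicates 1 and 2, bIP replicates 1 to 3 and aRG replicates 1 and 2 lie in the first, and N replicates 3 and 4, bIP replicates 4 and 5, both bRG libraries and aRG replicate 3 in the second. Of 6 radial glia markers 6 had promoter regions lower in N than in bIP and 6 lower in bIP than in aRG, among them SOX2, at 9.60 CPM in N and 59.3 CPM in aRG. CPM is the count of a region in the usual depth-scaled unit, with TMM scaling between libraries. Of 6 neuron markers 5 were higher in N than in aRG, and BCL11B itself was not called (log2 difference 0.07 ± 0.20, SE). As a list these markers did not set N apart from bIP. In bIP versus aRG 5 were higher as well. In N versus bIP 1 was higher and 1 lower, with a median log2 difference of 0.04. Their summed level was 176 to 270 CPM in N, 180 to 298 CPM in bIP, 77.3 to 77.8 CPM in bRG and 68.3 to 88.1 CPM in aRG. Of all promoters, taken 1 a gene, 35.3% were lower and 16.3% higher in N than in aRG. These shares were 22.3% and 13.7% in N versus bIP, and 18.4% and 10.7% in bIP versus aRG. Promoters of other cell types also moved with the groups. Of 5 mesenchyme markers with a promoter region 4 were lower in N than in aRG, and their summed level was 26.5 to 32.6 CPM in N, 25.9 to 40.9 CPM in bIP, 51.7 to 53.1 CPM in bRG and 50.3 to 57.6 CPM in aRG. Of 7 markers of retinal pigment epithelium and eye field 5 were lower and 1 was higher in N than in aRG, with sums of 54.1 to 84.5 CPM in N, 56.6 to 77.5 CPM in bIP, 74.2 to 75.7 CPM in bRG and 79.7 to 86.6 CPM in aRG. Of 5 midbrain floor plate markers 2 were lower and 2 higher in N than in aRG, with sums of 49.1 to 64.9 CPM in N, 50.5 to 66.1 CPM in bIP, 73.1 to 79.8 CPM in bRG and 82.6 to 103 CPM in aRG. Of 6 endoderm and liver markers 2, SOX17 and GATA4, had a promoter region, both lower in N than in aRG, with sums of 4.99 to 7.34 CPM in N, 5.37 to 5.79 CPM in bIP, 8.29 to 8.81 CPM in bRG and 8.30 to 9.79 CPM in aRG. No marker with a promoter region was at 0 in all libraries, and the part of other cells in the results below was not tested. In bulk material, fewer cells with an open region and less access per cell cannot be told apart.

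The 46 regions differed among the cell types about as often as all regions did, and those that differed were mostly less open in neurons. A test of all 4 types together called 34 of 46 regions (73.9%), against 74.6% of all 200931 regions tested (edgeR's quasi-likelihood test, adjusted p under 0.05 over all regions, used throughout). All 46 regions passed the filter on low counts. In N versus aRG 30 regions were called, against 66.4% of all regions, and 24 of these were lower in N, against 29.2% of all regions. The 6 higher ones stood against 37.1% of all regions. The median log2 difference of the 46 was -0.82, and that of all regions was 0.18. In N versus bRG 21 regions were called, against 58.1% of all, with 17 lower, against 25.8%, and 4 higher, against 32.2%. In N versus bIP 27 were called, against 55.2% of all, with 20 lower, against 26.4%, and 7 higher, against 28.8%. In bIP versus aRG 20 were called, against 44.9% of all, with 14 lower, against 20.9%, and 6 higher, against 24.0%. In bIP versus bRG 11 were called, against 36.5% of all, with 7 lower, against 16.1%, and 4 higher, against 20.4%. In bRG versus aRG no member was called, against 0% of all regions. At an unadjusted p under 0.05 there were 4 members of 46 and 8197 regions of all, or 4.08%, and the Wald test of DESeq2 called 0 members and 7 regions of all. Scaling with DESeq2's size factors moved the median of all regions by -0.122 in N versus aRG and by less than that in the other comparisons, and no called member changed direction under it. Single libraries carried part of these counts. Without aRG replicate 3, which lay apart from the other aRG libraries at several regions below, bIP versus aRG had 12 calls. Of all regions 80318 were called in that fit, against 90252 with every library. Leaving out bRG replicate 1 or 2 leaves a single bRG library. Calls of N and of bIP against bRG then became fewer, among the members and among all regions.

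**Figure D1:**
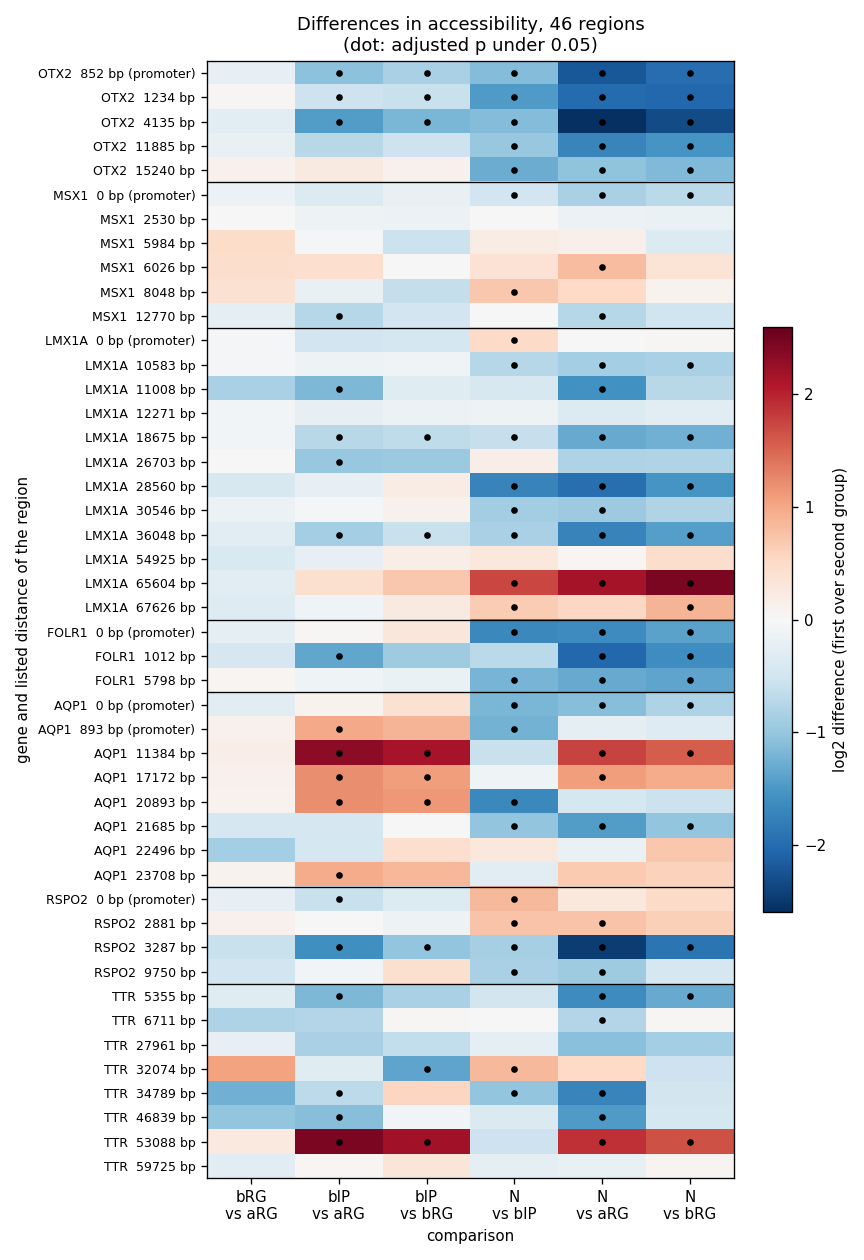
Log2 differences in accessibility of the 46 regions (rows, by gene and listed distance in bp) in 6 comparisons (columns), from a quasi-likelihood model of 14 libraries; red is higher and blue lower in the first-named group, and a dot marks an adjusted p under 0.05. The OTX2 rows are blue and dotted in all 3 comparisons of N, AQP1 rows hold most of the dotted red squares in the bIP versus aRG and bIP versus bRG columns, and the bRG versus aRG column has no dot.

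The 7 promoter regions moved in both directions between N and bIP. All 7 were called there, against 37.2% of all promoter regions, with 5 lower, against 22.9%, and 2 higher in N, against 14.3%. In N versus aRG 4 of 7 were called, against 52.3%, all lower in N, against 35.1%, and in N versus bRG 4 of 7, against 38.3%, all lower in N, against 21.8%. In bIP versus aRG 3 of 7 were called, against 29.9%, 1 higher, against 11.5%, and 2 lower, against 18.4%, and in bIP versus bRG 1 of 7, against 21.0%, lower in bIP, against 10.1%. Over all 4 types together 6 of 7 were called, against 52.2%.

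**Figure D2:**
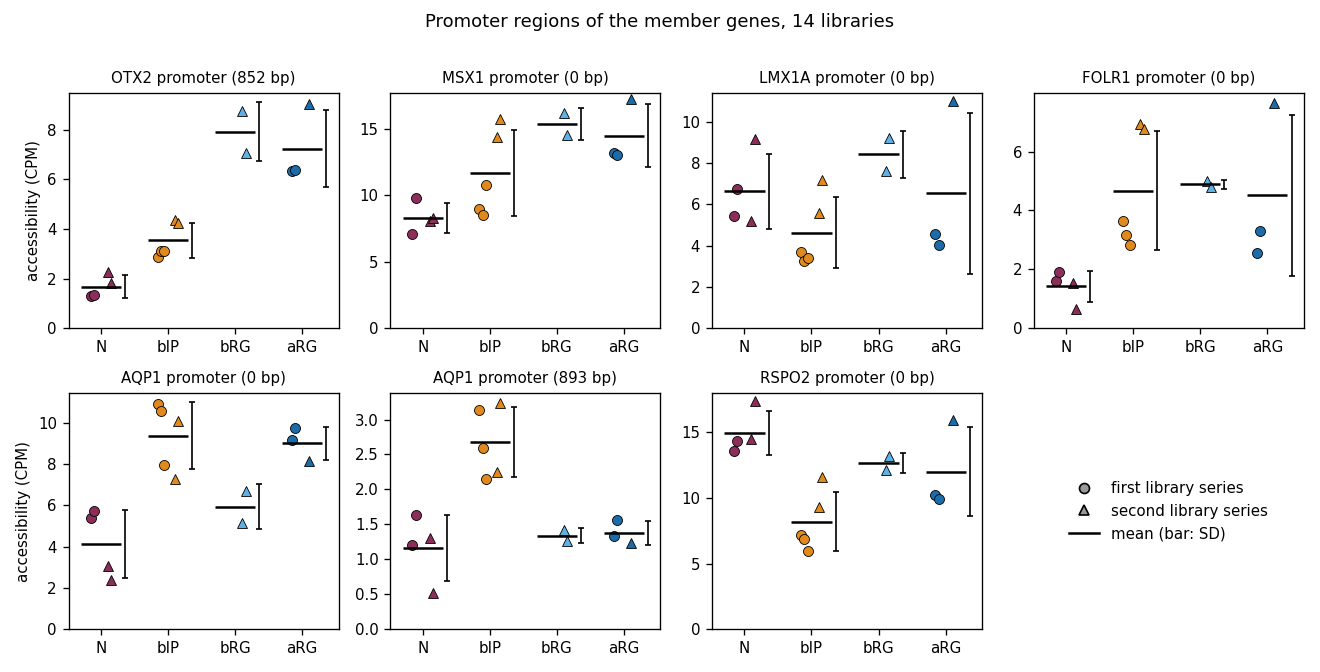
Accessibility (CPM) of the 7 promoter regions in 14 libraries, by cell type; points are libraries (circles first, triangles second series), lines are group means and bars SD, and panel titles give the listed distance in bp. OTX2 lies at 1.29 to 2.26 CPM in N and at 6.32 to 9.02 CPM in aRG, while RSPO2 lies at 13.6 to 17.4 CPM in N and at 5.97 to 11.6 CPM in bIP.

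OTX2, the homeodomain factor without which mouse embryos fail to form a choroid plexus, was less open in neurons at each of its 5 regions, all called lower in N against aRG, bRG and bIP alike. The promoter region (chr14:37575063-37575897) had 1.29, 1.36, 2.26 and 1.83 CPM in the 4 N libraries, 2.88, 3.11, 3.12, 4.38 and 4.25 CPM in the 5 bIP libraries, 8.75 and 7.07 CPM in the bRG libraries, and 6.32, 6.36 and 9.02 CPM in the aRG libraries. All N libraries lay below all bIP libraries, and these below all radial glia libraries, while bRG and aRG overlapped. It was lower in N than in aRG by a log2 difference of -2.20 ± 0.21 (SE; adjusted p = 1.3e-09), in N than in bIP by -1.13 ± 0.19 (adjusted p = 1.7e-05) and in bIP than in aRG by -1.07 ± 0.18 (adjusted p = 2.7e-05). The same steps were -1.20 and -1.22 within the first library series and -1.16 and -1.19 within the second, for N versus bIP and bIP versus aRG.

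The distal OTX2 region at 4135 bp (chr14:37569297-37570075) showed the largest difference of the gene between N and aRG. It had 0.975, 0.611, 1.06 and 0.610 CPM in N, 1.63, 1.29, 1.80, 2.48 and 1.74 CPM in bIP, 4.04 and 4.73 CPM in bRG, and 5.10, 4.74 and 4.76 CPM in aRG. The groups N, bIP and radial glia did not overlap, and N was lower than aRG by a log2 difference of -2.58 ± 0.27 (adjusted p = 5.8e-09) and bIP lower than aRG by -1.46 ± 0.23 (adjusted p = 9.8e-06). The neighbouring region at 1234 bp (chr14:37571506-37572978) averaged 2.09 ± 0.229 CPM in N (SD, n = 4), 5.74 ± 0.464 CPM in bIP (n = 5), 9.11 ± 0.490 CPM in bRG (n = 2) and 8.28 ± 0.762 CPM in aRG (n = 3), with no overlap of N, bIP and radial glia. At 1234 bp N was lower than bIP by -1.48 ± 0.18 (adjusted p = 1.6e-07) and bIP lower than aRG by -0.54 ± 0.17 (adjusted p = 0.0138). That last call was lost without aRG replicate 3 (adjusted p = 0.0615, over 23 alternatives 0.00118 to 0.284), whereas the calls of N at these 3 regions held in every alternative fit.

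The OTX2 regions at 11885 and 15240 bp were singled out after their values were seen, because aRG replicate 3 stood apart there. At 11885 bp the level was 0.468, 0.747, 0.673 and 0.610 CPM in N, 0.757, 0.388, 1.11, 1.64 and 2.03 CPM in bIP, 2.48 and 3.09 CPM in bRG, and 0.474, 1.06 and 4.90 CPM in aRG. aRG replicate 1 lay within the range of N, and aRG replicates 2 and 3 lay above it. The call of N lower than aRG (log2 difference -1.72 ± 0.42, adjusted p = 8.4e-04) was lost without that library (adjusted p = 0.22, over 23 alternatives 9.3e-06 to 0.624). At 15240 bp the N versus aRG difference of -1.04 ± 0.28 (adjusted p = 0.00233) was lost without it too (adjusted p = 0.0546, over 23 alternatives 3.0e-04 to 0.0973), while N versus bIP, at -1.28 ± 0.25, kept its call in every alternative. At 11885 bp the call against bRG was lost without bRG replicate 2 (adjusted p = 0.0604, over 22 alternatives 1.0e-05 to 0.198), and the call against bIP without bIP replicate 1, 3 or 5 or N replicate 3 or 4 (over 23 alternatives 0.00368 to 0.535).

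MSX1, a homeodomain factor switched on by BMP signals at the dorsal midline, changed less than OTX2. Its promoter region (chr4:5352605-5353624) had 7.06, 9.78, 8.07 and 8.26 CPM in N, 9.0, 8.54, 10.8, 14.4 and 15.7 CPM in bIP, 16.2 and 14.5 CPM in bRG, and 13.2, 13 and 17.2 CPM in aRG. All N libraries lay below all radial glia libraries, and N and bIP overlapped. The promoter was lower in N than in aRG by a log2 difference of -0.85 ± 0.19 (adjusted p = 4.3e-04), a call kept in 24 of 24 alternatives, and than in bRG by -0.70 ± 0.23 (adjusted p = 0.0115). The step from bIP, N lower by -0.50 ± 0.17 (adjusted p = 0.0167), was lost without bIP replicate 5 (adjusted p = 0.0502) or N replicate 4 (adjusted p = 0.0571), over 24 alternatives 0.00163 to 0.447, and N versus bRG was lost without bRG replicate 1 (adjusted p = 0.0979, over 23 alternatives 0.00167 to 0.0979).

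Of the 5 distal MSX1 regions 3 were called in some comparison, and each of their calls was lost on leaving out 1 library. The region at 6026 bp (chr4:5358981-5360161) ran against the promoter. It had 7.56, 7.34, 6.05 and 8.35 CPM in N, 4.65, 4.21, 5.27, 6.23 and 7.97 CPM in bIP, 6.02 and 7.31 CPM in bRG, and 3.44, 3.18 and 5.74 CPM in aRG, so that all N libraries lay above all aRG libraries. The level was higher in N than in aRG by a log2 difference of 0.81 ± 0.22 (adjusted p = 0.00256), by 1.00 within the first library series and by 0.11 within the second, and the call was lost without aRG replicate 2 (adjusted p = 0.0838, over 23 alternatives 2.9e-06 to 0.502). The distal region with the highest level, at 2530 bp (chr4:5349478-5350469), averaged 7.49 ± 0.921 CPM in N, 7.38 ± 1.39 CPM in bIP, 9.93 ± 0.535 CPM in bRG and 8.15 ± 3.22 CPM in aRG. It was called in no comparison, and its N versus aRG difference had a 95% interval of -0.53 to 0.22.

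LMX1A, which specifies roof plate and cortical hem and is used in the midbrain floor plate as well, had 12 regions, and these behaved in different ways. Its promoter region (chr1:136083986-136085782) had 5.46, 6.73, 5.19 and 9.15 CPM in N, 3.71, 3.24, 3.40, 5.57 and 7.2 CPM in bIP, 7.63 and 9.23 CPM in bRG, and 4.55, 4.05 and 11 CPM in aRG. The groups overlapped except bIP and bRG, and aRG replicate 3 lay far above the other aRG libraries. N versus aRG gave a log2 difference of 0.00 ± 0.23, and N was higher than bIP by 0.50 ± 0.21 (adjusted p = 0.0462). That call was lost in 18 of 23 alternatives (adjusted p 4.5e-04 to 0.691), among them leaving out N replicates 1, 2 or 4, bIP replicates 1, 2, 3 or 4, aRG replicates 1 or 2, or either bRG library.

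The distal LMX1A region at 36048 bp (chr1:136121414-136122521) was the most open of all 39 distal regions in radial glia, per length and in CPM. It had 6.94, 8.56, 8.74 and 9.20 CPM in N, 14.2, 15.3, 13.6, 15.6 and 15.9 CPM in bIP, 23.2 and 23.2 CPM in bRG, and 27.9, 28.7 and 25.5 CPM in aRG. No group overlapped with another. Per kb of region its level was above 98.8% to 98.9% of 180739 distal regions in aRG libraries, 94.7% to 96.7% in bIP libraries and 85% to 93.0% in N libraries. Its level was lower in N than in aRG by a log2 difference of -1.73 ± 0.17 (adjusted p = 2.4e-09) and than in bIP by -0.85 ± 0.15 (adjusted p = 3.4e-05), and bIP was lower than aRG by -0.89 ± 0.15 (adjusted p = 3.5e-05) and lower than bRG by -0.58 ± 0.19 (adjusted p = 0.0185). Within the first and the second series N versus aRG was -2.04 and -1.72. The calls against bIP and aRG held whichever library was left out, while bIP versus bRG was lost without bRG replicate 1 or 2 (adjusted p = 0.107 and 0.103, over 23 alternatives 5.6e-04 to 0.501).

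A second LMX1A region, at 18675 bp (chr1:136104026-136105682), had the same order of N, bIP and radial glia. It averaged 7.81 ± 1.05 CPM in N, 11.5 ± 2.56 CPM in bIP, 20.4 ± 0.581 CPM in bRG and 18.7 ± 0.918 CPM in aRG. The bRG libraries lay above the aRG libraries here and below them at 36048 bp, and bRG versus aRG was called at neither region. All bIP and N libraries lay below all radial glia libraries. N was lower than aRG by a log2 difference of -1.32 ± 0.19 (adjusted p = 9.6e-07), bIP lower than aRG by -0.73 ± 0.17 (adjusted p = 0.00113) and N lower than bIP by -0.59 ± 0.17 (adjusted p = 0.00398).

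The LMX1A region at 65604 bp (chr1:136019009-136020047), singled out after its values were seen, did the opposite. It had 5.07, 6.18, 3.03 and 5.91 CPM in N, 1.02, 1.17, 1.11, 2.03 and 2.22 CPM in bIP, 1.01 and 1.08 CPM in bRG, and 0.909, 0.998 and 1.42 CPM in aRG. All N libraries lay above all others. N was higher than aRG by a log2 difference of 2.16 ± 0.31 (adjusted p = 1.2e-06), than bRG by 2.45 ± 0.39 (adjusted p = 6.1e-06) and than bIP by 1.74 ± 0.25 (adjusted p = 2.1e-06), and none of these calls was lost in any alternative. RXRG is the next gene on that side in the table, and the distance alone does not tie the region to LMX1A. Of the remaining 8 distal LMX1A regions, 5 were lower in N or bIP in at least 1 comparison, 1, at 67626 bp, was higher in N, and 2, at 12271 and 54925 bp, were called in none. The only call at 26703 bp (bIP lower than aRG) and both calls at 67626 bp were lost on leaving out any of several libraries.

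**Figure D3:**
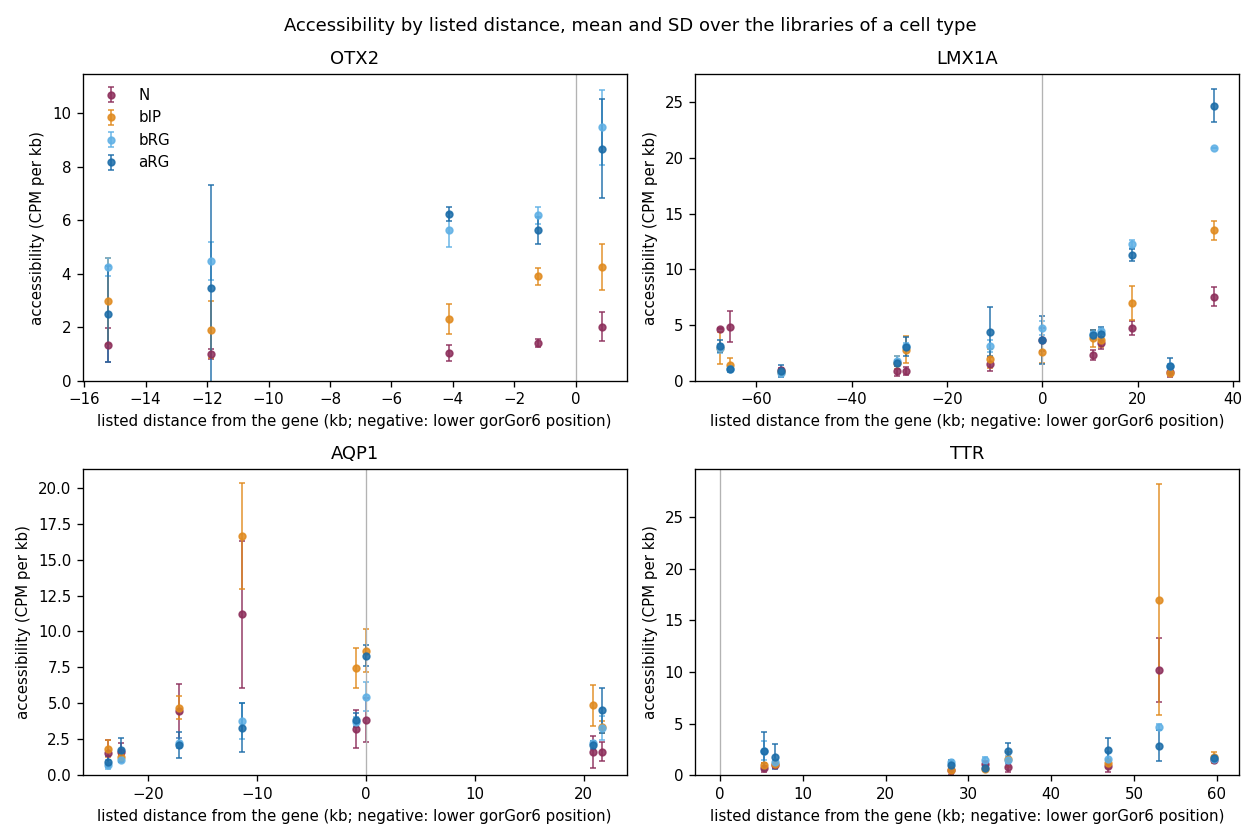
Accessibility per kb (CPM per kb, mean and SD over the libraries of a cell type) against the listed distance (kb) for the regions of OTX2, LMX1A, AQP1 and TTR, with regions at lower gorGor6 positions than the gene at negative distances. The highest point of LMX1A is the region at 36048 bp, 24.7 CPM per kb in aRG, and those of AQP1 and TTR are the bIP values at 11384 and 53088 bp, 16.6 and 17.0 CPM per kb.

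RSPO2, which strengthens WNT signals by keeping WNT receptors on the cell surface, had its lowest promoter level in bIP. The promoter region (chr8:103884896-103886884) had 13.6, 14.3, 14.5 and 17.4 CPM in N, 7.19, 6.86, 5.97, 9.33 and 11.6 CPM in bIP, 12.1 and 13.2 CPM in bRG, and 10.2, 9.92 and 15.9 CPM in aRG. All N libraries lay above all bIP and bRG libraries, and N overlapped with aRG only through aRG replicate 3. N was higher than bIP by a log2 difference of 0.85 ± 0.16 (adjusted p = 7.3e-05), by 1.05 within the first series and by 0.52 within the second. bIP was lower than aRG by -0.58 ± 0.17 (adjusted p = 0.00766), a call lost without aRG replicate 3 (adjusted p = 0.0667, over 24 alternatives 3.7e-04 to 0.19). N versus aRG, at 0.27 ± 0.18, was not called, with a 95% interval of -0.09 to 0.62.

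The distal RSPO2 region at 3287 bp (chr8:103882787-103883242) lay a short way from that promoter and was less open in N and bIP than in aRG. It had 0.312, 0.679, 1.01 and 0.422 CPM in N, 0.568, 0.712, 0.902, 1.33 and 1.69 CPM in bIP, 2.73 and 3.04 CPM in bRG, and 2.61, 2.00 and 4.22 CPM in aRG. All N and bIP libraries lay below all radial glia libraries, and N and bIP overlapped. Accessibility was lower in N than in aRG by a log2 difference of -2.46 ± 0.32 (adjusted p = 2.3e-07), and bIP was lower than aRG by -1.60 ± 0.28 (adjusted p = 3.6e-05), both kept in every alternative. N versus bIP, at -0.87 ± 0.31 (adjusted p = 0.0219), was lost without bIP replicate 5, N replicate 1 or N replicate 4 (adjusted p = 0.0679, 0.0802 and 0.0856, over 23 alternatives 0.0069 to 0.254). The distal region with the highest level, at 9750 bp (chr8:103875934-103876779), averaged 1.35 ± 0.418 CPM in N, 2.39 ± 1.19 CPM in bIP, 2.47 ± 0.280 CPM in bRG and 2.37 ± 1.06 CPM in aRG, and was lower in N than in bIP (log2 difference -0.84 ± 0.25, adjusted p = 0.00497) and in aRG (-0.92 ± 0.27, adjusted p = 0.00473). Both calls were lost without the series term (adjusted p = 0.0517 against bIP and 0.0751 against aRG) and within the first series (adjusted p = 0.273 and 0.0957), over 23 alternatives 0.0019 to 0.273 and 1.0e-03 to 0.0957. The region at 2881 bp was higher in N than in bIP, by 0.75 ± 0.26 (adjusted p = 0.0163), a call lost without N replicate 2 (adjusted p = 0.0526, over 23 alternatives 0.00514 to 0.384).

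FOLR1, the folate receptor that carries folate across the choroid plexus into the cerebrospinal fluid, was less open in neurons than in aRG and bRG at all of its 3 regions. Its promoter region (chr11:54665903-54667015) had 1.60, 1.90, 1.54 and 0.657 CPM in N, 3.63, 3.17, 2.84, 6.94 and 6.76 CPM in bIP, 5.00 and 4.78 CPM in bRG, and 2.57, 3.31 and 7.65 CPM in aRG. All N libraries lay below all others, while bIP, bRG and aRG overlapped. The FOLR1 promoter was lower in N than in bIP by a log2 difference of -1.68 ± 0.30 (adjusted p = 3.3e-05), by -0.91 within the first library series and by -2.72 within the second, and lower than in aRG by -1.64 ± 0.33 (adjusted p = 9.7e-05). bIP versus aRG, at 0.04 ± 0.29, had a 95% interval of -0.53 to 0.61. FOLR1 lies beside related folate receptor genes, and it is not stated in the sources how reads matching more than 1 place were counted.

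The 2 distal FOLR1 regions were at low levels. The region at 5798 bp (chr11:54660257-54660726) had 0.663, 0.747, 0.673 and 0.610 CPM in N, 1.32, 2.27, 1.67, 1.5 and 1.30 CPM in bIP, 1.21 and 1.87 CPM in bRG, and 1.98, 2.06 and 1.27 CPM in aRG, with all N libraries below all others. N was lower than bIP by a log2 difference of -1.21 ± 0.27 (adjusted p = 5.3e-04), and this held in every alternative. The region at 1012 bp (chr11:54667576-54667986) averaged 0.339 ± 0.231 CPM in N, 0.541 ± 0.173 CPM in bIP, 1.13 ± 0.524 CPM in bRG and 1.39 ± 0.332 CPM in aRG, and 3 counts are 0.113 to 0.234 CPM, depending on the library. It was lower in N than in aRG by -2.04 ± 0.41 (adjusted p = 1.1e-04) and in bIP than in aRG by -1.35 ± 0.37 (adjusted p = 0.00346). At both distal regions the call of N lower than bRG was lost without bRG replicate 2 (adjusted p = 0.0684 at 5798 bp, over 22 alternatives 5.5e-04 to 0.132, and 0.187 at 1012 bp, over 22 alternatives 2.9e-04 to 0.992).

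AQP1, the water channel of the apical choroid plexus membrane, was the 1 gene of the 7 that had more regions called higher than lower in bIP against both kinds of radial glia. In bIP versus aRG 5 of its 8 regions were higher, against 24.0% of all regions, and 0 lower, against 20.9%. In bIP versus bRG 3 were higher, against 20.4%, and 0 lower, against 16.1%. Of the 5 calls in bIP versus aRG, only that at 11384 bp was kept in every alternative. Its promoter region (chr7:31540565-31541646) had 5.38, 5.71, 3.07 and 2.39 CPM in N, 10.9, 10.6, 7.98, 7.29 and 10.1 CPM in bIP, 5.16 and 6.70 CPM in bRG, and 9.17, 9.73 and 8.14 CPM in aRG. All N libraries lay below all bIP and aRG libraries and overlapped with bRG. The AQP1 promoter was lower in N than in bIP by a log2 difference of -1.19 ± 0.20 (adjusted p = 1.7e-05) and than in aRG by -1.10 ± 0.22 (adjusted p = 1.2e-04), both kept in every alternative, whereas N versus bRG (-0.80 ± 0.27, adjusted p = 0.0143) was lost without bRG replicate 2 (adjusted p = 0.172, over 23 alternatives 9.1e-04 to 0.779).

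The second AQP1 promoter region, at 893 bp (chr7:31539827-31540184), was most open in bIP. It had 1.21, 1.63, 1.30 and 0.516 CPM in N, 3.14, 2.59, 2.15, 2.25 and 3.24 CPM in bIP, 1.42 and 1.26 CPM in bRG, and 1.34, 1.56 and 1.23 CPM in aRG. All bIP libraries lay above all others, which overlapped among themselves. bIP was higher than aRG by a log2 difference of 0.99 ± 0.29 (adjusted p = 0.00584), a call lost within the second library series (adjusted p = 0.114) and with aRG replicates 1 and 2 and bIP replicates 1 and 2 summed (adjusted p = 0.0615, over 23 alternatives 5.0e-04 to 0.114). N was lower than bIP by -1.22 ± 0.27 (adjusted p = 3.4e-04). bIP versus bRG, at 0.88 ± 0.36, did not pass the threshold (adjusted p = 0.0539).

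The AQP1 region at 11384 bp (chr7:31528859-31529721) showed the largest differences of the gene. It had 11.8, 14.8, 5.33 and 6.80 CPM in N, 13.8, 14, 10.6, 13.8 and 19.4 CPM in bIP, 2.48 and 4.03 CPM in bRG, and 2.02, 2.00 and 4.56 CPM in aRG. All N and bIP libraries lay above all radial glia libraries. bIP was higher than aRG by a log2 difference of 2.32 ± 0.33 (adjusted p = 2.0e-06) and higher than bRG by 2.15 ± 0.40 (adjusted p = 1.1e-04). N was higher than aRG by 1.75 ± 0.33 (adjusted p = 5.7e-05), but by 2.56 within the first library series and by 0.20 within the second, where aRG has 1 library. Of the other 5 distal AQP1 regions, those at 17172, 20893 and 23708 bp were higher in bIP than in aRG, by 1.20 ± 0.34, 1.21 ± 0.35 and 0.97 ± 0.36. Each of these calls was lost on leaving out 1 library, aRG replicate 1 for 17172 bp (adjusted p = 0.0786, over 23 alternatives 5.5e-04 to 0.232), aRG replicate 2 for 20893 bp (adjusted p = 0.0601, over 23 alternatives 2.3e-04 to 0.0752), and aRG replicates 2 or 3, bIP replicate 5 or N replicate 3 for 23708 bp (over 23 alternatives 0.0117 to 0.261). The calls against bRG at 17172 and 20893 bp, at adjusted p = 0.0412 and 0.0399, were each lost on leaving out either bRG library, or bIP replicate 1, 4 or 5 (over 22 alternatives 0.00178 to 0.443 and 1.0e-03 to 0.213). The region at 17172 bp was also higher in N than in aRG, by 1.08 ± 0.36 (adjusted p = 0.00997), a call lost without aRG replicate 1 or N replicate 2 (adjusted p = 0.104 and 0.0614, over 23 alternatives 1.4e-04 to 0.777). That at 20893 bp was lower in N than in bIP, by -1.67 ± 0.33 (adjusted p = 1.1e-04), a call kept in every alternative. The region at 21685 bp was lower in N than in every other cell type, by -1.02 ± 0.29 against bIP (adjusted p = 0.00479), -1.03 ± 0.39 against bRG (adjusted p = 0.0248) and -1.46 ± 0.32 against aRG (adjusted p = 2.7e-04). Its call against bRG was lost without bRG replicate 2 or N replicate 4 (adjusted p = 0.236 and 0.0561, over 22 alternatives 0.00441 to 0.523). The region at 22496 bp was called in no comparison.

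TTR, the carrier of thyroid hormone and retinol that choroid plexus and liver secrete in large amounts, had 8 distal regions, all at higher positions than the gene. A region 393 bp from the point to which the listed TTR distances refer is listed under DSG2-AS1; chosen after the data were seen, it had 3.63 ± 0.381 CPM in N, 3.57 ± 0.480 CPM in bIP, 3.93 ± 0.452 CPM in bRG and 3.90 ± 0.282 CPM in aRG, and was called in no comparison. The nearest, at 5355 bp (chr18:25003627-25004708), averaged 0.819 ± 0.475 CPM in N, 1.12 ± 0.209 CPM in bIP, 2.6 ± 0.960 CPM in bRG and 2.58 ± 1.97 CPM in aRG. N was lower than aRG by a log2 difference of -1.64 ± 0.38 (adjusted p = 5.3e-04), but aRG replicate 3 had 4.85 CPM against 1.58 and 1.31 CPM in the other aRG libraries, and without it the call was lost (adjusted p = 0.0791, over 23 alternatives 7.5e-05 to 0.0791).

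The TTR region at 53088 bp (chr18:25051299-25052620) held the 2 highest single values of bIP among the 46 regions. It had 16.8, 15.8, 7.73 and 13.3 CPM in N, 11.8, 13.9, 9.78, 35.4 and 41.4 CPM in bIP, 6.42 and 5.90 CPM in bRG, and 2.37, 2.93 and 6.08 CPM in aRG. All N and bIP libraries lay above all radial glia libraries, and bIP replicates 4 and 5, of the second series, lay far above the other bIP libraries. In bIP replicates 1 to 3 the LMX1A region at 36048 bp was higher than this one. bIP was higher than aRG by a log2 difference of 2.44 ± 0.36 (adjusted p = 4.1e-06), by 2.01 within the first series and by 2.53 within the second, and higher than bRG by 2.18 ± 0.42 (adjusted p = 1.8e-04). N was higher than aRG by 1.90 ± 0.37 (adjusted p = 6.3e-05), by 2.48 within the first series and by 0.57 within the second. B4GALT6 is the next gene on that side in the table, so the listed gene need not be the one the region serves. Of the other 7 TTR regions, 4 were lower in N than in aRG (at 6711 bp not without aRG replicate 3, adjusted p = 0.66, or N replicate 2, adjusted p = 0.0649, over 23 alternatives 0.0116 to 0.854), and those at 27961 and 59725 bp were called in no comparison. The remaining one, at 32074 bp, was higher in N than in bIP, by 0.84 ± 0.32 (adjusted p = 0.0258), a call lost without bIP replicate 1 or 4 or N replicate 1, 2 or 3 (over 23 alternatives 0.00459 to 0.321). There bIP was lower than bRG by -1.37 ± 0.40 (adjusted p = 0.00755), a call lost without bRG replicate 1 (adjusted p = 0.0968, over 22 alternatives 0.00237 to 0.464).

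**Figure D4:**
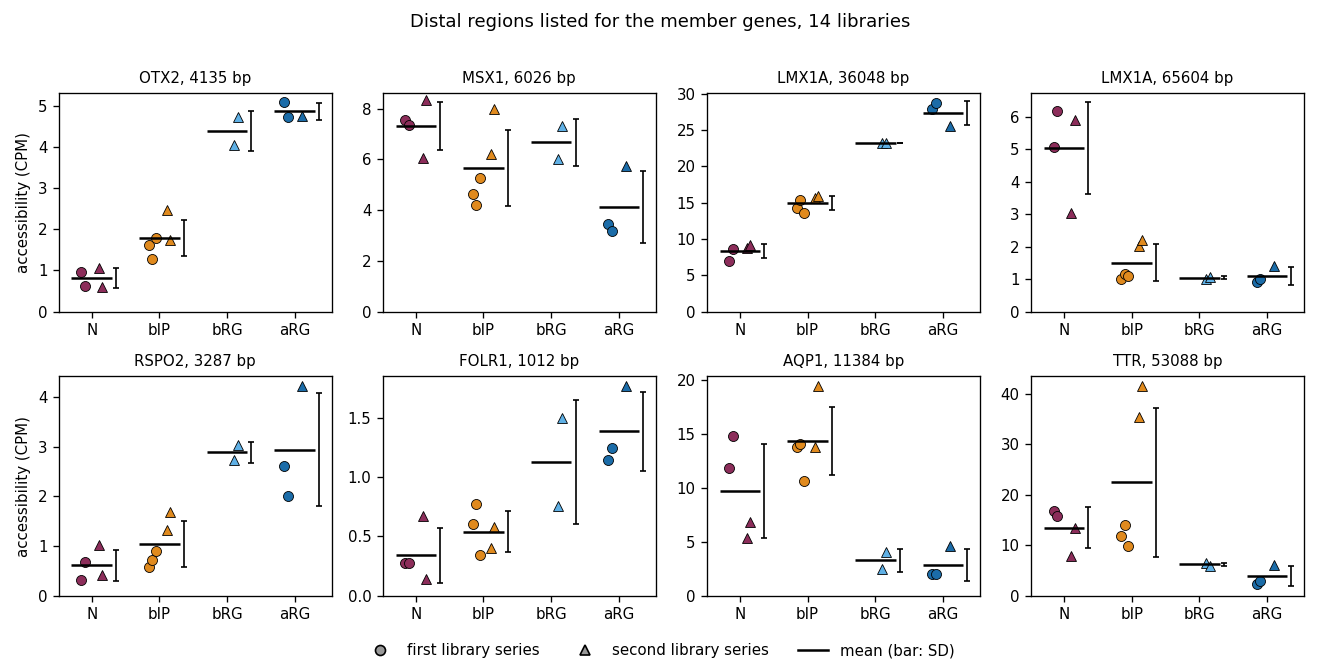
Accessibility (CPM) of 8 distal regions, named by gene and listed distance in bp, in 14 libraries: for each gene the one with the largest log2 difference between N and aRG, and LMX1A at 36048 bp; points are libraries (circles first, triangles second series), lines group means and bars SD. OTX2, LMX1A at 36048 bp, RSPO2 and FOLR1 are lowest in N, LMX1A at 65604 bp is highest in N, and AQP1 and TTR are higher in N and bIP than in radial glia, with bIP replicates 4 and 5 at 35.4 and 41.4 CPM for TTR.

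Compared per length, the MSX1 promoter region lay above the median of all promoter regions in aRG, bRG and bIP and near it in N. The other promoter regions lay below or near that median. In aRG the MSX1 promoter had the highest level, 14.2 ± 2.30 CPM per kb (SD, n = 3), followed by OTX2 with 8.67 ± 1.85, AQP1 with 8.33 ± 0.747, RSPO2 with 6.04 ± 1.71, FOLR1 with 4.05 ± 2.47, AQP1 at 893 bp with 3.84 ± 0.473 and LMX1A with 3.64 ± 2.17 CPM per kb. OTX2 and AQP1, and the neighbours from RSPO2 down, differed by less than the larger of their SDs. The median of all 20663 promoter regions was 9.77 CPM per kb in aRG. In N the order was MSX1 with 8.13 ± 1.10 CPM per kb (SD, n = 4), RSPO2 with 7.51 ± 0.844, AQP1 with 3.82 ± 1.53, LMX1A with 3.69 ± 1.01, AQP1 at 893 bp with 3.25 ± 1.31, OTX2 with 2.02 ± 0.542 and FOLR1 with 1.28 ± 0.481 CPM per kb, and the median of all was 8.08. MSX1 and RSPO2, and the neighbours from AQP1 to OTX2, differed by less than the larger of their SDs. In bIP the order was MSX1 with 11.5 ± 3.16 CPM per kb (SD, n = 5), AQP1 with 8.67 ± 1.51, AQP1 at 893 bp with 7.47 ± 1.39, OTX2 with 4.25 ± 0.848, FOLR1 with 4.20 ± 1.81, RSPO2 with 4.12 ± 1.15 and LMX1A with 2.57 ± 0.955 CPM per kb, and the median of all was 8.93. The neighbours from MSX1 to AQP1 at 893 bp, and those from OTX2 to RSPO2, differed by less than the larger of their SDs. In bRG it was MSX1 with 15.0 ± 1.15 CPM per kb (SD, n = 2), OTX2 with 9.47 ± 1.42, RSPO2 with 6.36 ± 0.366, AQP1 with 5.48 ± 1.01, LMX1A with 4.69 ± 0.628, FOLR1 with 4.39 ± 0.144 and AQP1 at 893 bp with 3.74 ± 0.298 CPM per kb, and the median of all was 9.28. The neighbours from RSPO2 to FOLR1 differed by less than the larger of their SDs. The OTX2 promoter thus stood above 14.8% to 25.7% of all promoters in N libraries and above 44.3% to 52.1% in aRG libraries.

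The deposited peak sets, 1 per cell type, gave a coarser picture. Peaks of the N set touched 13 of the 46 regions (28.3%, against 34.0% of all regions), peaks of the bIP set 20 (43.5%, against 32.9%), peaks of the bRG set 21 (45.7%, against 33.1%) and peaks of the aRG set 15 (32.6%, against 33.6%). Peaks of all 4 sets touched 6 regions (13%, against 15.5% of all regions), among them the promoter regions of MSX1, RSPO2 and AQP1, and no set touched 17 (37.0%, against 42.0%). Peaks of the 2 radial glia sets and of no other touched 4 regions (8.7%, against 7.07%), of which 3 belong to OTX2, including its promoter, and the fourth is MSX1 at 12770 bp. The AQP1 region at 11384 bp and the LMX1A region at 65604 bp were touched in the N and bIP sets only. With 1 set for each cell type, these overlaps have no replicate check.

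The promoters most like each member over the 14 libraries were looked up among 17717 promoter regions, 1 a gene. The OTX2 promoter was most like those of NCKAP5, TNC and HNMT (Pearson r of log2(CPM + 1) of 0.990, 0.987 and 0.986, against a median of 0.294 for all promoters). TNC, an extracellular matrix protein, is a marker of outer radial glia. Of 4 such markers with a promoter region 0 were called in bRG versus aRG, against 0% of all promoters. Their sums were 82.7 to 93.8 CPM in bRG and 92.5 to 93.8 CPM in aRG. MSX1 was most like ROR2, CDH4 and CBX2 (0.966, 0.965 and 0.960), LMX1A like NPAS2, HPDL and FAM184B (0.937, 0.930 and 0.929), RSPO2 like AP000866.5, SORCS3 and NPAS2 (0.949, 0.941 and 0.926), FOLR1 like AC117469.1, AL133227.1 and AC068789.1 (0.960, 0.954 and 0.949) and AQP1 like OTOG, NCCRP1 and RNU1-123P (0.957, 0.954 and 0.948). These are descriptions over libraries that share cell types and library series, with the highest of many values picked.

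At promoters of other genes listed for the choroid plexus and the hem, calls were also more often lower than higher in N. These lists were chosen with earlier results of these data known, so they are no independent check. Of 102 listed genes 77 had a promoter region that was tested, and in N versus aRG 45 of them (58.4%) were lower and 5 (6.49%) higher, against 35.3% and 16.3% of promoters taken 1 a gene. The medians were -0.59 for the lists and -0.26 for all promoters. In N versus bRG 33 were lower and 4 higher, against 21.5% and 15.8%. In N versus bIP 36 were lower and 7 higher, against 22.3% and 13.7%. In bIP versus aRG 36 were lower and 2 higher, against 18.4% and 10.7%. In bIP versus bRG 12 were lower and 3 higher, against 9.97% and 10.2%. No list gene was called in bRG versus aRG, where edgeR called no region and DESeq2 called 7 of all regions.

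Genes listed as hem and roof plate transcription factors made up 12 of the 45 genes that were lower in N than in aRG. Of 13 tested, 12 were lower and 1 was higher in N than in aRG, against 35.3% and 16.3% of promoters taken 1 a gene. Their median log2 difference was -1.61, and that of all promoters -0.26. In N versus bIP 11 were lower, against 22.3%, with a median of -1.02, and -0.13 for all promoters. Of 6 radial glia markers 6 were also lower in N than in aRG, with a median of -1.75. Whether the listed factors mark hem cells here was not tested. ZIC4 and ZIC5, zinc finger factors of the dorsal neural tube, were lower in N than in aRG by -3.02 ± 0.24 and -2.37 ± 0.19 (adjusted p = 1.3e-10 and 1.4e-10), and DMRTA2, a factor needed for the hem in mice, was lower in N than in bIP by -1.59 ± 0.16 (adjusted p = 8.6e-09). PAX3, a paired box factor of the dorsal neural tube, was lower in bIP than in bRG by -1.01 ± 0.26 (adjusted p = 0.00252). The 1 that was higher in N than in aRG was LMX1B, the close relative of LMX1A (1.17 ± 0.35, adjusted p = 0.00528, named after its value was seen).

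Of 27 tested genes listed for the choroid plexus epithelium 12 were lower and 1 was higher in N than in aRG. Of promoters taken 1 a gene, these shares were 35.3% and 16.3%. In bIP versus aRG 11 were lower and 0 higher, against 18.4% and 10.7%. KCNJ13, a potassium channel of that epithelium, was lower in N than in aRG by -4.20 ± 0.31 (adjusted p = 3.6e-11) and in bIP than in aRG by -2.55 ± 0.25 (adjusted p = 1.0e-08). AQP4, a water channel on the same list, was lower in bIP than in bRG by -1.42 ± 0.39 (adjusted p = 0.00481). Whether it marks that epithelium in these cells was not tested. CDH1, the epithelial cadherin, was higher in N than in bIP by 1.24 ± 0.22 (adjusted p = 2.7e-05) and SOSTDC1, a secreted BMP and WNT inhibitor, by 0.75 ± 0.18 (adjusted p = 9.0e-04).

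Of 8 genes of the multiciliated cell program 5 were lower and 0 higher in N than in aRG. Of all promoters taken 1 a gene, 35.3% were lower and 16.3% higher there. DNAH11, a dynein of motile cilia, led the 5 with -2.95 ± 0.20 (adjusted p = 1.4e-11). Of 17 genes of WNT, RSPO and BMP signalling 10 were lower and 1 was higher in N than in aRG, against the same 35.3% and 16.3%. The higher one was WNT5A, a WNT ligand of the hem, with 3.91 ± 0.38 (adjusted p = 2.1e-09), and it was also higher in bIP than in bRG, by 3.93 ± 0.48 (adjusted p = 6.5e-07). ZNRF3, the membrane ubiquitin ligase that RSPO proteins hold in check, was lower in N than in bIP by -1.25 ± 0.16 (adjusted p = 3.0e-07). Of 7 genes of Cajal-Retzius cells, neurons that the hem produces, 3 were lower and 1, CALB2, was higher in N than in aRG (CALB2 0.65 ± 0.20, adjusted p = 0.00527). The shares of all promoters were again 35.3% and 16.3%. CXCR4 was lower in bIP than in aRG by -0.75 ± 0.15 (adjusted p = 2.1e-04), and EBF2 was higher in bIP than in aRG by 0.50 ± 0.17 (adjusted p = 0.0158). Of 6 selector genes that set cortex against hem 3 were lower and 1, SIX3, was higher in N than in aRG (SIX3 1.09 ± 0.20, adjusted p = 4.2e-05). These counts stood against the same 35.3% lower and 16.3% higher.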

How the data were processed

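Bulk ATAC-seq of 14 libraries from 4 sorted cell types was analysed. The authors deposited whole-number read counts per region, not normalized. The submitters' processing notes name bcl2fastq 2.20.0, MACS2 and the builds hg38 and panTro6. Not given in the sources used here are the aligner, how reads were counted, and whether reads were shifted to the insertion point. The authors also deposited 1 consensus peak set per cell type, with a score, a fold ratio, a −log10 p-value and a −log10 q-value per peak; only positions and the −log10 q were used. The count table names regions in gorGor6; 59353 regions (29.1%) share an exact start with a peak, by which the peak sets were taken as gorGor6. Region starts are printed counted from 1. The point the listed distances refer to is not stated; the points they imply lay within 1 to 312 bp of each other for a gene. Exon, intron or UTR annotation was not used here.

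Of 218080 rows, 13823 without a gorilla position, all at 0 counts, and 8 repeats were left out. With edgeR 4.0.16 in R 4.3.3, regions were kept by filterByExpr on the groups (200931), scaled by TMM and fitted by quasi-likelihood with terms for group and library series over all 14 libraries (9 residual degrees of freedom); p-values were adjusted by Benjamini-Hochberg over all regions, with a threshold of 0.05. Log2 differences come from that model, with SE; levels are CPM with TMM factors. Floors of 3 counts cover counting error only. The fit was also run on simulated counts with a constant spread and no series effect. These data differ from that setting, and no result here rests on it. DESeq2 1.42.0 was an alternative. Counts of aRG replicates 1 and 2 and of bIP replicates 1 and 2 came closest to counting noise (chi-square per degree of freedom 1.077 and 1.093, other pairs of a group 1.493 to 12.226); these pairs were kept as separate libraries and summed in an alternative.

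Members and lists were chosen with earlier results of these data known. Values are given for every promoter region and, per gene, for the distal region with the highest mean CPM, the one with the smallest p over the 4 types, and up to 2 called in every comparison in which a distal region of the gene was called; other listed genes are named by smallest p, up to 4 a direction. No promoter sequence or genome was at hand, so motifs were not searched. Other alternatives were DESeq2 size factors, other filters, no series term, fits within a series or of 2 groups alone, and leaving out each library.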

Additional observations from a re-analysis of the deposited data

Results flagged for a closer look

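Single libraries stood apart from their group at 2 of 92 groups of 4 or 5 libraries examined, where chance gives about 1 in 20. At the TTR region at 59725 bp N replicate 4 was lowest, with 1.5 CPM, and the other N libraries had 2.03 to 2.11 CPM. At the RSPO2 region at 9750 bp N replicate 3 was highest, with 1.97 CPM, and the other N libraries had 1.09 to 1.21 CPM.

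Differences between cell types were also compared between the 2 library series, by edgeR's quasi-likelihood test of the interaction with adjustment over 202152 regions, of which 7.33% were called for N versus bIP, 2.40% for N versus aRG and 0.00742% for bIP versus aRG. The second series holds 1 aRG library, so comparisons with aRG there rest on it. For N versus bIP, the log2 difference in the second minus the first series was -2.42 at the TTR region at 53088 bp (-1.96 in the second and 0.46 in the first, adjusted p = 3.6e-05), -1.59 at the AQP1 region at 11384 bp (-1.54 and 0.05, adjusted p = 0.00323), -1.81 at the FOLR1 promoter (-2.72 and -0.91, adjusted p = 0.00992), -1.55 at the LMX1A region at 11008 bp (-1.28 and 0.27, adjusted p = 0.0419) and -1.37 at the LMX1A region at 65604 bp (0.98 and 2.35, adjusted p = 0.0465). For N versus aRG it was -2.37 at the AQP1 region at 11384 bp (0.20 in the second and 2.56 in the first, adjusted p = 0.00137), -1.90 at the TTR region at 53088 bp (0.57 and 2.48, adjusted p = 0.00892), -2.10 at the FOLR1 promoter (-3.01 and -0.91, adjusted p = 0.0153) and -2.66 at the OTX2 region at 11885 bp (-3.14 and -0.48, adjusted p = 0.0271). No member differed between the series in bIP versus aRG, and what differs between the series beside the numbering was not tested.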

How the results depend on the processing

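Of 2501 values of the 109 called differences under alternatives, 2242 stayed called in the same direction, 258 lost the call and 1 changed sign, FOLR1 at 1012 bp in N versus bRG (0.04, adjusted p = 0.992) with a replicate block. At least 10 CPM in 2 libraries left 8 members, with 7 called over all 4 types, 7 in N versus aRG, 7 in N versus bRG, 3 in N versus bIP, 6 in bIP versus aRG and 5 in bIP versus bRG. Among all regions that filter gave, in the same order, 38961, 33911, 32008, 29999, 30863 and 25988 calls. A fit of 2 groups alone called 3 in bRG versus aRG and 18 in bIP versus bRG, and the second library series alone 11 in bIP versus aRG. Same-numbered libraries of different groups correlated at -0.25 to 0.359 in their deviations (7 of 16 pairs over 0.1), so the numbers were not taken to pair them; the replicate block left 11 calls in bIP versus aRG, 0 in bIP versus bRG and 6 in N versus bRG. Leaving out each library gave 30 to 36 calls over all 4 types, 25 to 32 in N versus aRG, 13 to 26 in N versus bRG, 22 to 28 in N versus bIP, 12 to 25 in bIP versus aRG and 3 to 12 in bIP versus bRG. Calls kept in every alternative were 16 of 30 in N versus aRG, 6 of 21 in N versus bRG, 14 of 27 in N versus bIP, 5 of 20 in bIP versus aRG and 0 of 11 in bIP versus bRG. Peaks above the median −log10 q of their set touched 9 members in bIP and 9 in bRG. Over all regions, bRG versus aRG had 1125 calls in the 2 groups alone, 11 without aRG replicate 3 and 6 without bIP replicate 3; bIP versus aRG had 49481 in the second series alone, against 90252; the block gave 5899 in bIP versus bRG, against 73398, and 44832 in N versus bRG, against 116654. Among all regions, leaving out each library gave 142634 to 155500 calls over all 4 types. It gave 121795 to 136823 in N versus aRG, 100980 to 115689 in N versus bIP and 76040 to 100265 in bIP versus aRG. With both bRG libraries kept the range was 109801 to 121694 in N versus bRG and 63558 to 83558 in bIP versus bRG. The 2 groups alone gave 93308 calls of all regions in bIP versus bRG, and the block 69389 in bIP versus aRG. Counts over the other gene lists were not refitted. The cause of these shifts was not tested. With 2 bRG libraries, and members at a few CPM, small differences could not be seen.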
